A study of Homo sapiens with 9 samples.

Results

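The 10 keratin genes of breast epithelial cells described here were followed across the 9 samples of the series: KRT5, KRT14 and KRT15 (basal), KRT6A, KRT16 and KRT17 (stress), KRT7, KRT8 and KRT18 (simple), and KRT80. They were chosen by symbol, with no cut on measured values but with earlier results of these data known. All 10 were found among the 56609 gene symbols of the deposited table. The cells were MCF10A, a non-tumorigenic human breast epithelial line and therefore a single genetic background. The high calcium group (3 samples) had 10 mM calcium and ionomycin for 16 h. The labels give the dose of ionomycin, an ionophore that carries calcium across membranes, as 1 mM. The TGFb3 group (3 samples) had 10 nM of this growth factor, transforming growth factor beta 3, for 16 h, and the control group (3 samples) was untreated. All groups shared a growth medium with horse serum, EGF, hydrocortisone, cholera toxin and insulin. No group had calcium or ionomycin alone, so the effects of these agents cannot be told apart, and the labels name no vehicle for the control.

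Keratins are the intermediate filament proteins of epithelia. A type II keratin pairs with a type I keratin to form the filament, and the pairs mark kinds of epithelial cell: KRT5 with KRT14 in the basal layer of stratified and glandular epithelium, KRT8 with KRT18 in simple and luminal epithelium, and KRT6A with KRT16 or KRT17 in wounded or activated epidermis. In the mammary gland the outer, myoepithelial layer carries the basal pair and the inner, milk-secreting layer the simple pair. Keratin filaments are anchored at desmosomes and hemidesmosomes and carry mechanical load.

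Values are TPM (transcripts per 1000000, a share of each library per unit of transcript length), which keeps no sequencing depth, so the depth is unknown. They are shares of RNA in bulk samples, in which fewer cells of a type and less RNA per cell cannot be told apart. Whether the 3 samples of a group were separate cultures is not stated in the labels, and the spread that the p-values rest on may therefore be technical. The breast epithelial markers EPCAM, CDH1, TP63, ITGA6, EGFR and CLDN1 were all measured, with summed levels of 1205 to 1212 TPM in high calcium, 1128 to 1182 TPM in TGFb3 and 895 to 917 TPM in controls. The sums do not stand for each marker: ITGA6 alone averaged 219 TPM in high calcium, 547 TPM in TGFb3 and 297 TPM in controls. Of the 7 luminal markers, 3 averaged 1 TPM or more, and together they had 155 to 197 TPM in high calcium, 52.5 to 69.2 TPM in TGFb3 and 52.8 to 87.1 TPM in controls, with PGR at 0 throughout. Of the 5 myoepithelial markers 1 did so, and they had 12.9 to 16.3 TPM in high calcium, 8.96 to 10.3 TPM in TGFb3 and 9.56 to 9.79 TPM in controls. Of the 7 fibroblast markers 2 did so, with a sum of 9.99 to 12.6 TPM in high calcium, 28.5 to 32.0 TPM in TGFb3 and 2.60 to 3.52 TPM in controls, and COL1A2 at 0 in every sample. Of the 5 leukocyte markers 2 did so, with a sum of 53.0 to 73.9 TPM in high calcium, 10.8 to 15.6 TPM in TGFb3 and 19.6 to 23.4 TPM in controls, and PTPRC and CD3E at 0. Endothelial markers (1 of 4) summed to 6.96 to 7.19 TPM in high calcium, 1.54 to 2.12 TPM in TGFb3 and 3.81 to 4.51 TPM in controls, with CDH5 at 0, and adipocyte markers (0 of 3) to at most 0.858 TPM in any sample, with ADIPOQ at 0. RNA of the mitochondrial genome took 11.1 to 11.9% of TPM in high calcium, 22.2 to 23.3% in TGFb3 and 21.7 to 23.3% in controls. The part of these shares in the keratin values was tested only for mitochondrial RNA, by leaving it out, and for the other markers was not tested.

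Together the 10 keratins took more of the RNA in treated cells. Their share of TPM was 1.01, 1.03 and 1.01% in high calcium, 0.911, 0.832 and 0.784% in TGFb3 and 0.534, 0.543 and 0.576% in controls. No sample of a group overlapped with those of another, and each pair of groups had an exact permutation p of 0.1 (two-sided), the smallest that 3 samples against 3 allow. With mitochondrial genes left out, the means were 1.15% in high calcium, 1.09% in TGFb3 and 0.714% in controls. TGFb3 replicate 1 then lay above every high calcium sample, so high calcium and TGFb3 were no longer separate. Both treated groups stayed above the controls.

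The levels of the 10 genes ran from 2.26 TPM (KRT14 in a control) to 3726 TPM (KRT17 in high calcium). In high calcium KRT17 was highest at 3571 ± 134 TPM (SD, n = 3), followed by KRT7, KRT5, KRT6A, KRT8, KRT18 and KRT16, and then by KRT80, KRT15 and KRT14, whose neighbouring ranges overlapped. In TGFb3 KRT7 (2485 ± 146 TPM) and KRT17 (2453 ± 229 TPM) overlapped at the top, and KRT6A, KRT5, KRT8, KRT18, KRT16, KRT14, KRT15 and KRT80 followed without overlap. In controls KRT7 led at 1757 ± 76.9 TPM, KRT17 and KRT5 overlapped in the next places, and KRT6A, KRT18, KRT8, KRT15, KRT16, KRT14 and KRT80 followed, the last pair with overlapping ranges. KRT8 thus stood above KRT18 in both treated groups and below it in controls. Samples also differed within a group: TGFb3 replicate 1 was highest of its group for 9 of the 10 keratins and TGFb3 replicate 3 lowest for 9, and control replicate 3 was highest of its group for 9.

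**Figure D1:**
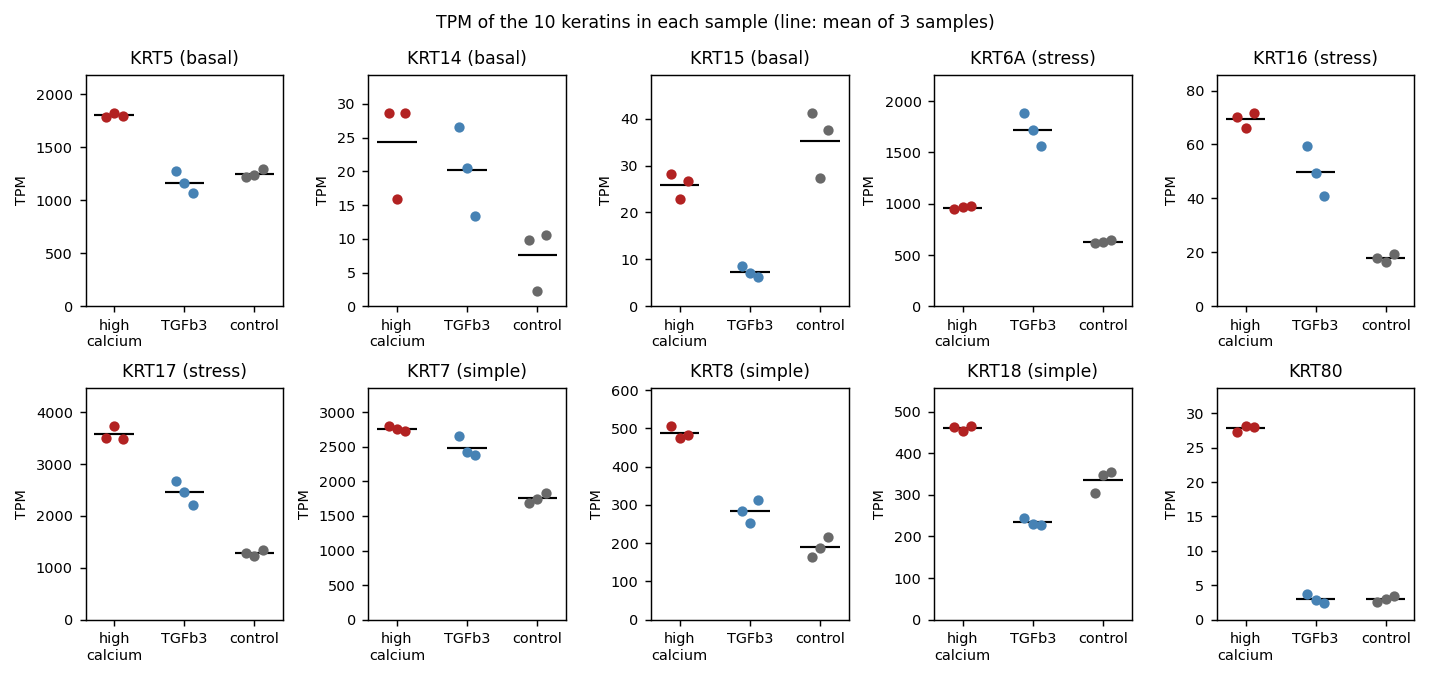
TPM of each keratin (vertical axes, linear, starting at 0) in the 3 high calcium, 3 TGFb3 and 3 control samples; points are samples and lines are group means. KRT80 lies at 27.3 to 28.1 TPM in high calcium and at 2.44 to 3.67 TPM in the other 6 samples, and KRT6A is highest in TGFb3.

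Each gene was tested as log2(TPM + 1) with limma in a fit of the 13968 symbols that averaged 1 TPM or more, among them all 10 keratins, and called at a Benjamini-Hochberg adjusted p under 0.05 over all of them. High calcium against control asks how these cells respond to calcium given together with ionomycin. The series title ties raised calcium to milk stasis, a link that was not tested here. In high calcium 9 of the 10 keratins rose and 1 fell, where 63.1% of all tested genes were called, 46.1% higher and 17% lower. The ranges of the samples were separate for 9 of 10, against 69% of all tested genes. The median log2 difference of the members was 1.01, beside 0.22 for all tested genes. Against the same controls, TGFb3 raised 6, lowered 2 and left 2 uncalled, where 59.6% of tested genes were called, 26.5% higher and 33.1% lower. Ranges were separate for 8 of 10, against 63.8% of all tested genes, and the median was 0.54 beside -0.06. Both comparisons share their control samples.

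The basal keratins did not move as a group. KRT5, the main type II keratin of basal cells (ENSG00000186081, hg38 chromosome 12, 52514575 to 52520687, minus strand), measured 1789, 1821 and 1792 TPM in high calcium, 1272, 1159 and 1072 TPM in TGFb3 and 1221, 1237 and 1299 TPM in controls. The high calcium samples were above all others, and the TGFb3 and control samples overlapped. KRT5 rose by a log2 of 0.52 ± 0.058 (SE) in high calcium (limma adjusted p = 2.8e-05), a 1.44-fold change of TPM + 1, and its log2 difference in TGFb3 was -0.10 ± 0.058 (adjusted p = 0.15). Without TGFb3 replicate 1, KRT5 was called lower in TGFb3 (log2 -0.17, adjusted p = 0.015, range over all alternatives 0.015 to 0.49).

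The promoter of KRT5 is shown because KRT5 was the most abundant basal keratin and the one called in high calcium and not in TGFb3. Of the 10 members KRT5 and KRT8 matched the RefSeq promoter table (GRCh38.p14). The window holds 250 bases before and 50 bases from the transcription start on the minus strand, chr12:52520345-52520644. The whole window lies inside the KRT5 gene interval given above, whose upstream end is at 52520687, so the RefSeq start differs from that end. Capitals mark ATAAAA, an A-rich relative of the TATA box, which lies 29 bases before the start and was chosen after the window was read. A stretch of letters may match both it and TATAAA.
KRT5 promoter: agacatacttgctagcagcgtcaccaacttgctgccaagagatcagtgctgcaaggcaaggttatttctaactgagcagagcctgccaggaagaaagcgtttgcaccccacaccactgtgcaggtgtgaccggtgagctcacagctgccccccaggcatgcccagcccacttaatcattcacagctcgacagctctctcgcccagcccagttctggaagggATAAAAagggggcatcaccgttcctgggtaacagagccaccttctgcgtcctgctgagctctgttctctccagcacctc
The letters ATAAAA occur on either strand in 16.0% of the 35116 promoter windows of the table. No match was found in the KRT5 window for the AP-1 motif TGANTCA (7.71% of windows), the TATA box TATAAA (11.5%) or the GC box GGGCGG (45.0%), searched on both strands.

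KRT14, the type I partner of KRT5 in basal cells (ENSG00000186847, chromosome 17, 41582279 to 41586921, minus strand), was low in this line. It measured 28.6, 15.9 and 28.6 TPM in high calcium, 26.6, 20.4 and 13.4 TPM in TGFb3 and 9.80, 2.26 and 10.6 TPM in controls. Every treated sample was above every control, with a wide spread inside each group. KRT14 rose by log2 1.73 ± 0.46 in high calcium (limma adjusted p = 0.0075) and by 1.46 ± 0.46 in TGFb3 (adjusted p = 0.018). Control replicate 2 weighed on both values: without it they were 1.14 and 0.87. The TGFb3 call was lost without TGFb3 replicate 1 (log2 1.25, limma adjusted p = 0.069) and when low genes were not filtered out (0.067, within a range of 0.0095 to 0.069).

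KRT15, a type I keratin of basal and progenitor cells (ENSG00000171346, chromosome 17, 41513743 to 41522529, minus strand), went the other way. It measured 28.1, 22.9 and 26.8 TPM in high calcium, 8.61, 7.20 and 6.25 TPM in TGFb3 and 41.2, 27.3 and 37.5 TPM in controls. The TGFb3 samples were below all others, while high calcium and control samples overlapped. In TGFb3 KRT15 fell by a log2 of 2.11, with an SE of 0.15 (limma adjusted p = 1.4e-06), to 0.208 times the control mean. In high calcium it fell by 0.42, with an SE of 0.15 (adjusted p = 0.037, range 0.0039 to 0.14). That call was lost without control replicate 1 (log2 -0.30, adjusted p = 0.14), control replicate 3 (-0.36, 0.11), high calcium replicate 2 (-0.33, 0.12) or high calcium replicate 3 (-0.44, 0.063).

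All of the stress keratins rose in both treated groups, each in its own proportion. KRT6A, a type II keratin induced in wounded and hyperproliferative epidermis (ENSG00000205420, chromosome 12, 52487174 to 52493257, minus strand), measured 944, 971 and 976 TPM in high calcium, 1883, 1721 and 1565 TPM in TGFb3 and 619, 623 and 650 TPM in controls. The 3 groups did not overlap, with TGFb3 highest. It rose by log2 0.61 ± 0.060 in high calcium (limma adjusted p = 1.2e-05) and by 1.44 ± 0.060 in TGFb3 (adjusted p = 3.6e-08).

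KRT16, a type I keratin co-expressed with KRT6A in activated keratinocytes (ENSG00000186832, chromosome 17, 41609778 to 41615899, minus strand), measured 70.1, 66.1 and 71.6 TPM in high calcium, 59.3, 49.4 and 41.0 TPM in TGFb3 and 17.9, 16.4 and 19.3 TPM in controls. Here high calcium was highest and controls lowest, without overlap. KRT16 rose by log2 1.90 ± 0.11 in high calcium (limma adjusted p = 3.5e-07) and by 1.42 ± 0.11 in TGFb3 (adjusted p = 2.8e-06).

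KRT17, a type I keratin of appendages, myoepithelium and wounds that also regulates protein synthesis in mouse keratinocytes (ENSG00000128422, chromosome 17, 41619441 to 41624842, minus strand), was the most abundant type I keratin in every sample. It measured 3503, 3726 and 3486 TPM in high calcium, 2678, 2460 and 2220 TPM in TGFb3 and 1281, 1237 and 1337 TPM in controls. The groups were separate and stood in the same order as for KRT16. KRT17 rose by log2 1.47 ± 0.067 in high calcium (limma adjusted p = 5.1e-08), which is 2.78-fold, and by 0.93 ± 0.067 in TGFb3 (adjusted p = 1.2e-06), which is 1.90-fold.

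Among the simple keratins KRT18 differed from its partner. KRT7, a type II keratin of ducts and glands (ENSG00000135480, chromosome 12, 52232520 to 52252186, plus strand), measured 2795, 2761 and 2735 TPM in high calcium, 2651, 2420 and 2382 TPM in TGFb3 and 1683, 1751 and 1836 TPM in controls. Both treated groups lay above the controls. KRT7 rose by log2 0.65 ± 0.052 in high calcium (limma adjusted p = 2.3e-06) and by 0.50 ± 0.052 in TGFb3 (adjusted p = 1.7e-05).

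KRT8, the type II keratin of simple epithelium (ENSG00000170421, chromosome 12, 52897187 to 52949954, minus strand), measured 505, 474 and 482 TPM in high calcium, 284, 253 and 311 TPM in TGFb3 and 164, 188 and 216 TPM in controls. The 3 groups were separate, with high calcium highest. KRT8 rose by log2 1.37 ± 0.098 in high calcium (limma adjusted p = 1.2e-06) and by 0.58 ± 0.098 in TGFb3 (adjusted p = 0.00055). KRT18, its type I partner (ENSG00000111057, chromosome 12, 52948871 to 52952901, plus strand), measured 462, 454 and 465 TPM in high calcium, 245, 231 and 228 TPM in TGFb3 and 304, 348 and 354 TPM in controls. The high calcium samples were above and the TGFb3 samples below every control. KRT18 rose by log2 0.46 ± 0.057 in high calcium (limma adjusted p = 6.5e-05) and fell by 0.51 in TGFb3, with an SE of 0.057 (adjusted p = 3.2e-05).

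KRT80, a type II keratin found near desmosomes and linked to epithelial differentiation (ENSG00000167767, chromosome 12, 52168996 to 52192000, minus strand), had the largest log2 difference of the 10 in high calcium. It measured 27.3, 28.1 and 28.0 TPM in high calcium, 3.67, 2.86 and 2.44 TPM in TGFb3 and 2.54, 3.03 and 3.43 TPM in controls. The high calcium samples stood apart, and the TGFb3 and control samples overlapped. The mean in high calcium was 9.27 times the control mean (limma adjusted p = 4.3e-08). In TGFb3 the log2 difference was -0.01 ± 0.13 (adjusted p = 0.96).

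**Figure D2:**
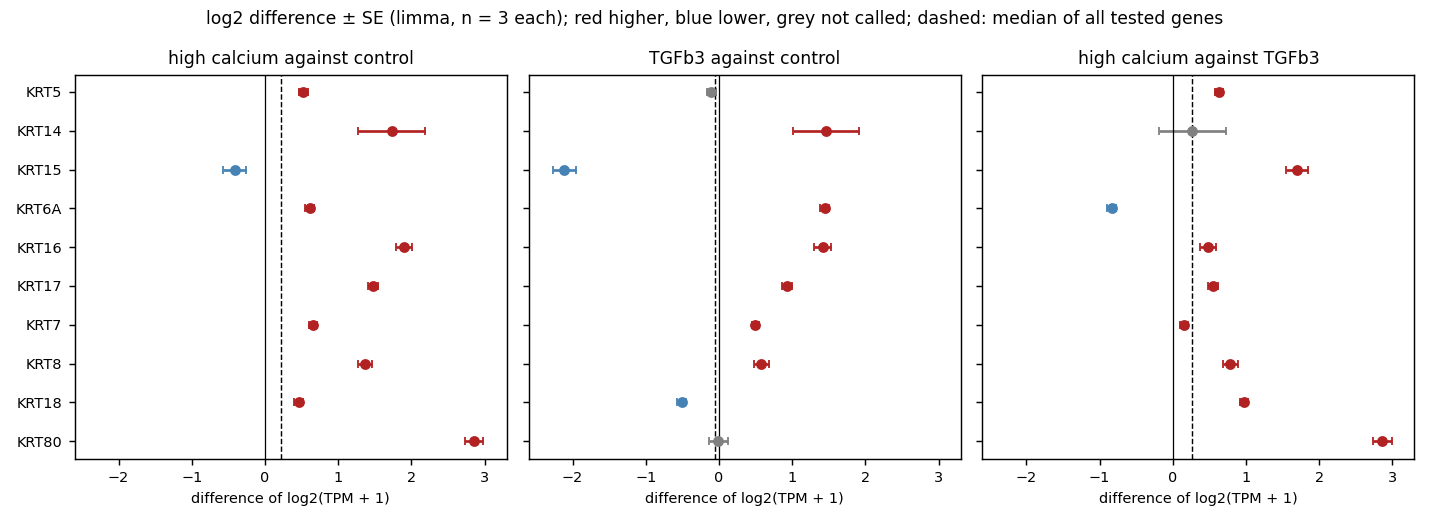
Difference of log2(TPM + 1) with its SE (horizontal axes) for the 10 keratins in each of the 3 comparisons (n = 3 in each group); red is called higher, blue called lower, grey not called, and the dashed line is the median of all tested genes. KRT80 lies at 2.85 in the left panel and at -0.01 in the middle one, and KRT15 and KRT18 are the members called lower in TGFb3.

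The high calcium values depend on how samples are scaled, because the median of all tested genes was itself 0.22 higher on the log2 scale. Measured from that median, the keratins differed by 2.63 for KRT80, 1.67 for KRT16, 1.25 for KRT17, 1.14 for KRT8, 0.43 for KRT7, 0.39 for KRT6A, 0.30 for KRT5, 0.23 for KRT18 and -0.64 for KRT15. After median ratio rescaling the smaller ones were 0.40 for KRT7, 0.36 for KRT6A, 0.27 for KRT5, 0.20 for KRT18 and -0.66 for KRT15, all still called in limma. Under this scaling 48.8% of all calls in high calcium were higher, 47.2% after quantile normalisation and 55.1% with mitochondrial genes left out, against 73.0% in TPM as deposited. Under each of the 3 other scalings the count of members stayed at 9 higher and 1 lower in high calcium, and at 6 higher and 2 lower in TGFb3.

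**Figure D3:**
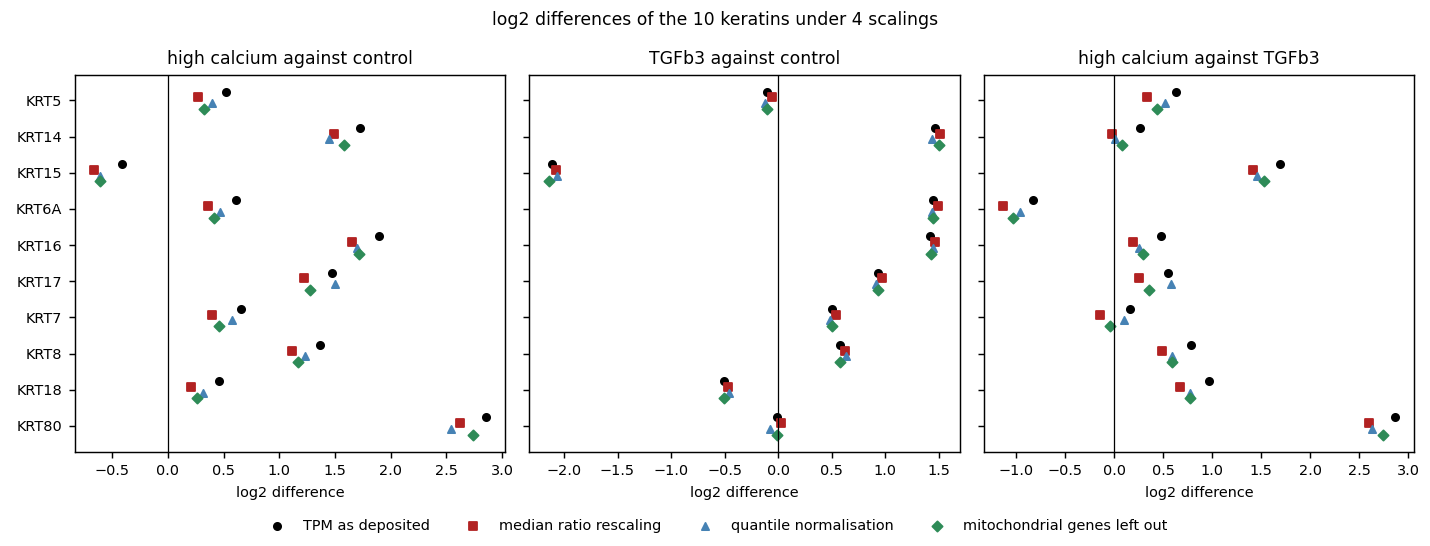
log2 differences of the 10 keratins (horizontal axes) in the 3 comparisons with TPM as deposited, after median ratio rescaling, after quantile normalisation and with mitochondrial genes left out; each point is a limma estimate over 3 samples in each group. In high calcium against TGFb3 the KRT7 points run from -0.14 to 0.16, on both sides of 0, and those of KRT14, which is not called, from -0.02 to 0.26.

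The direct test of high calcium against TGFb3 asks where the treatments differ. In high calcium 8 keratins were higher than in TGFb3, 1 lower and 1 not called, where 66.5% of tested genes were called, 50.4% higher and 16.2% lower. Ranges were separate for 9 of 10, against 71.2% of all tested genes, and the median log2 difference of the members was 0.59 beside 0.27 for all. KRT80 was higher by log2 2.86 ± 0.13, KRT15 by 1.69 ± 0.15, KRT18 by 0.97 ± 0.057 and KRT8 by 0.79 ± 0.098 (limma adjusted p = 3.8e-08, 5.9e-06, 2.8e-07 and 5.8e-05). KRT6A was lower in high calcium by a log2 of -0.83 ± 0.060 (limma adjusted p = 1.2e-06). KRT5 was higher by 0.63 and KRT17 by 0.55 in limma, and after median ratio rescaling by 0.33 and 0.25. Under that rescaling KRT8 was higher by 0.49. The KRT14 samples of these groups overlapped (log2 0.26 ± 0.46, limma adjusted p = 0.63).

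For KRT16 and KRT7 this comparison turned on the scaling. KRT16 was higher by log2 0.48 ± 0.11 in TPM as deposited (limma adjusted p = 0.0040), and was not called after median ratio rescaling (0.19, adjusted p = 0.18), quantile normalisation (0.25, adjusted p = 0.083) or with mitochondrial genes left out (0.29, adjusted p = 0.055), the range over all alternatives being 0.00040 to 0.18. KRT7 was higher by 0.16 ± 0.052 in TPM as deposited (limma adjusted p = 0.022), lower by a log2 of -0.14 after median ratio rescaling (adjusted p = 0.032) and not called after quantile normalisation or with mitochondrial genes left out (range 0.0049 to 0.50). Its call was also lost without high calcium replicate 1 or 2 or TGFb3 replicate 2 or 3, with adjusted p between 0.054 and 0.080. In all, 8 members were higher and 1 lower as deposited, and 6 were higher and 2 lower with the median ratio. Of all calls in this comparison 75.7% were higher as deposited, 48.9% with the median ratio, 51.1% after quantile normalisation and 59.5% with mitochondrial genes left out.

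Shares and ratios within the keratins are not changed by a single scaling factor for each sample, though quantile normalisation can change them. By role, stress keratins made up 45.2 ± 0.81% of the 10-keratin TPM in high calcium, 50.1 ± 1.1% in TGFb3 and 35.1 ± 0.71% in controls (SD, n = 3). Basal keratins made up 18.2 ± 0.16%, 14.2 ± 0.23% and 23.5 ± 0.28% in the same groups. KRT5 alone held 17.7, 13.9 and 22.7%, while the mean KRT14 share was higher in both treatments than in controls. Simple keratins made up 36.4 ± 0.69% in high calcium, 35.7 ± 1.4% in TGFb3 and 41.4 ± 0.98% in controls. In the same order KRT7 held 27.1, 29.5 and 31.9%, KRT18 4.52, 2.79 and 6.08%, and KRT8 4.78, 3.38 and 3.43%. Each of these roles was separate between either treatment and the controls (exact permutation p = 0.1, the smallest possible), and simple keratins overlapped between high calcium and TGFb3 (exact permutation p = 0.5).

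KRT17 took a larger share in both treatments, and KRT6A a larger one in TGFb3 and a smaller one in high calcium. KRT17 made up 35.0 ± 0.87% of the 10-keratin TPM in high calcium, 29.1 ± 0.68% in TGFb3 and 23.3 ± 0.61% in controls. KRT6A made up 9.45 ± 0.19% in high calcium, 20.4 ± 0.41% in TGFb3 and 11.4 ± 0.16% in controls, below the controls in high calcium although its TPM was above them. With KRT17 left out, a check chosen after seeing the data, the stress share was 15.6% in high calcium, 29.6% in TGFb3 and 15.3% in controls.

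**Figure D4:**
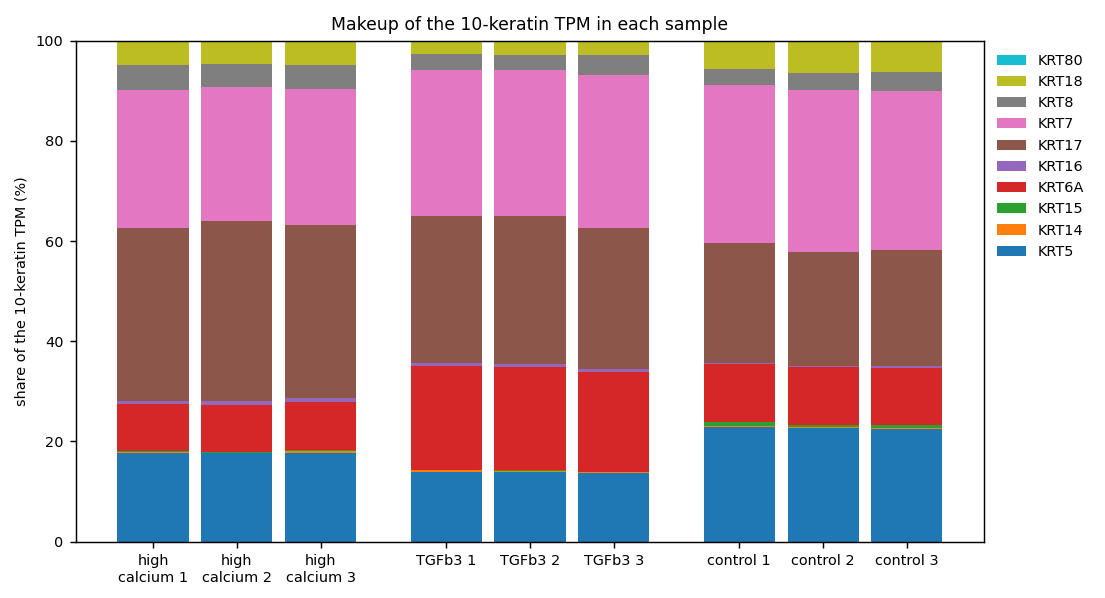
Share of the 10-keratin TPM (vertical axis, %) taken by each keratin in each of the 9 samples, stacked in the order of the legend. KRT17 widens most in high calcium (34.5 to 36.0%, against 22.8 to 24.0% in controls) and KRT6A in TGFb3 (20.0 to 20.7%, against 11.3 to 11.6%).

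Partner ratios moved as well. The KRT8 to KRT18 ratio of TPM was 1.09, 1.04 and 1.04 in high calcium, 1.16, 1.10 and 1.37 in TGFb3 and 0.539, 0.541 and 0.610 in controls. Both treated groups were above every control (exact permutation p = 0.1 in each case). The KRT6A to KRT16 ratio was 13.5, 14.7 and 13.6 in high calcium, 31.7, 34.8 and 38.2 in TGFb3 and 34.6, 37.9 and 33.6 in controls. High calcium samples were below all others, and TGFb3 and control samples overlapped (exact permutation p = 1). Type II members outweighed type I members 1.46 ± 0.037 to 1 in high calcium, 2.05 ± 0.065 to 1 in TGFb3 and 2.28 ± 0.051 to 1 in controls, with no overlap between groups. Summed type I TPM was 4151 ± 115 in high calcium, 2765 ± 254 in TGFb3 and 1681 ± 68.7 in controls, and KRT17 took 86.0, 88.7 and 76.5% of it. Counted over all keratin genes in the table, a check chosen after seeing the data, the ratio was 2.28 in high calcium, 3.01 in TGFb3 and 3.65 in controls.

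**Figure D5:**
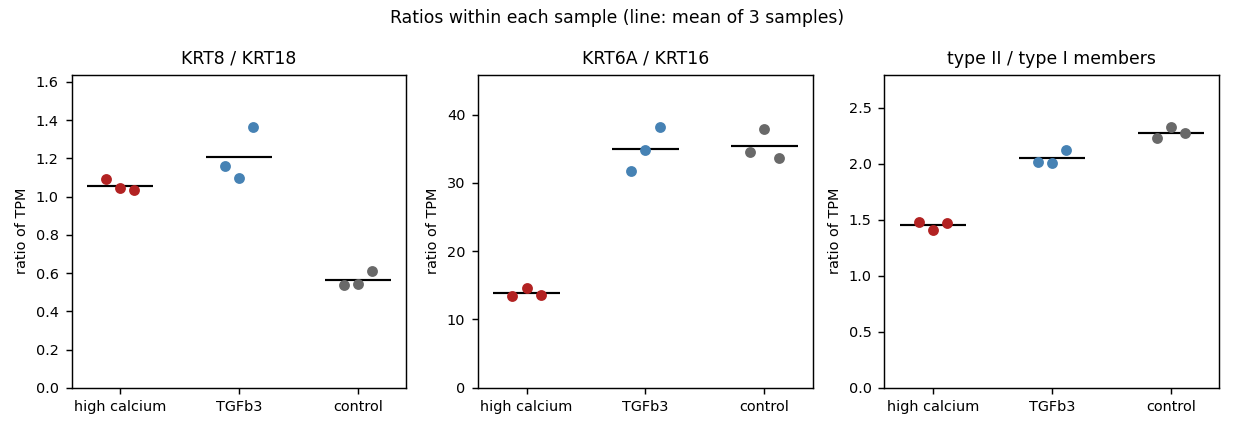
Ratios of TPM (vertical axes, linear, starting at 0) in each sample for KRT8 to KRT18, KRT6A to KRT16 and the type II to the type I members, with group means as lines. The KRT8 to KRT18 ratio is 1.04 to 1.37 in the 6 treated samples and 0.539 to 0.610 in controls, and the KRT6A to KRT16 ratio is lowest in high calcium.

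The table lists 45 further keratin genes, of which 24 were at 0 in every sample and 11 reached a mean of 1 TPM. The 10 members held 71.3 ± 0.34% of all keratin TPM in high calcium, 74.3 ± 0.34% in TGFb3 and 66.6 ± 0.064% in controls. KRT81, a type II keratin best known from hair, had the highest mean of all keratins in each group (in high calcium replicate 2 KRT17 was level with it), at 3782, 3724 and 3653 TPM in high calcium, 2939, 2568 and 2562 TPM in TGFb3 and 2488, 2521 and 2680 TPM in controls. High calcium was above all others, and TGFb3 overlapped with the controls. Of the 11 tested further keratins, 9 rose, 1 fell and 1 was not called in high calcium (8 and 1 under the median ratio). Of all tested genes 46.1% were called higher and 17% lower there. In TGFb3 4 rose, 1 fell and 6 were not called, beside 26.5% higher and 33.1% lower of all tested genes.

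KRT6B and KRT6C, the close relatives of KRT6A, followed its order of groups. KRT6B measured 8.96, 9.88 and 10.3 TPM in high calcium, 41.9, 36.9 and 24.9 TPM in TGFb3 and 4.68, 4.41 and 3.76 TPM in controls, and rose by log2 1.02 in high calcium and by 2.72 in TGFb3 (limma adjusted p = 0.00036 and 3.7e-07). KRT6C rose by log2 0.86 in high calcium and by 1.40 in TGFb3 (limma). KRT10, a type I keratin of differentiating epidermis, measured 176.5, 171 and 175 TPM in high calcium, 27.7, 79.3 and 27.9 TPM in TGFb3 and 51.8, 42.7 and 47.0 TPM in controls. High calcium was above all others, and in TGFb3 replicate 2 stood apart from replicates 1 and 3. KRT10 rose by log2 1.87 in high calcium (limma adjusted p = 0.00059).

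KRT13, a type I keratin of internal stratified epithelia, was the further keratin that fell in both comparisons. It measured 10.6, 10.1 and 13.3 TPM in high calcium, 14.8, 13.3 and 13.9 TPM in TGFb3 and 47.9, 41.2 and 51.6 TPM in controls, a log2 fall of 1.96 and 1.67 (limma adjusted p = 2.1e-07 and 6.8e-07). The hair keratins KRT34 and KRT85 rose in high calcium by log2 2.83 and 1.49 and in TGFb3 by 1.40 and 0.90 (limma). KRT34 averaged 1.55 TPM in controls. For KRT85 the TGFb3 samples (17.0, 13.4 and 10.1 TPM) overlapped with the controls (3.87, 11.1 and 6.52 TPM). KRT86 and KRT83 rose in high calcium by 0.57 and 0.77 and were not called in TGFb3 (limma adjusted p = 0.073 and 0.34), though KRT86 was called higher there after median ratio rescaling (log2 0.18, adjusted p = 0.014) and quantile normalisation (0.18, 0.015). KRT23 rose in high calcium by 0.44 in TPM as deposited and was not called there under the 3 other scalings (log2 0.06 to 0.32). KRT76 was not called in any comparison.

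Reads of similar genes could have been split between entries. Of all 101-base windows in the longest protein-coding transcript of KRT6A (GENCODE release 29), 17.9% occur unchanged in transcripts of another gene, 17.3% in KRT6C and 10.5% in KRT6B. For KRT18 15.1% of windows lie in the KRT8 transcripts annotated on the opposite strand, and for KRT7 7.62% lie in its antisense gene KRT7-AS. Use of strand in counting is not stated, so reads from KRT8 and KRT18 where they overlap, from KRT7 and KRT7-AS, and from KRT80 and LINC00592, which is annotated opposite it, cannot be told apart. The annotated KRT7 gene also overlaps KRT86 on the same strand and KRT87P on the opposite one, though its windows were shared only with KRT7-AS. Windows of the further keratins, KRT86 among them, were not checked. Shared windows made up 7.06% for KRT16, 5.83% for KRT14, 1.40% for KRT5 and 0.258% for KRT17, and none were found for KRT15, KRT8 and KRT80. KRT14 and KRT16 shared windows with each other, 3.71% of those of KRT14 and 3.76% of those of KRT16. Pseudogenes numbered after a member were listed at 2.98% of KRT8 TPM in high calcium, 3.41% in TGFb3 and 4.27% in controls, and at 1.06% or less for KRT16, KRT17 and KRT18. With the numbered pseudogenes added to each member, and KRT6B and KRT6C to KRT6A, no call among the members changed. That check did not join KRT14 with KRT16.

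Lists of genes linked to keratins are read beside all tested genes. Of these 46.1% were called higher and 17% lower in high calcium, and 26.5% higher and 33.1% lower in TGFb3. Counts under median ratio rescaling have another background: 4118 genes were then called higher and 4312 lower in high calcium, against 6438 and 2378 as deposited. Of 18 tested genes of desmosomes, hemidesmosomes and plakins, 10 rose, 3 fell and 5 were not called in high calcium, where median ratio rescaling left 6 higher and 3 lower, and 13 rose, 3 fell and 2 were not called in TGFb3. The list's median log2 difference was 0.31 in high calcium and 0.41 in TGFb3, beside 0.22 and -0.06 for all tested genes. ITGB4, the integrin subunit of hemidesmosomes, measured 123 ± 4.0 TPM in high calcium, 309 ± 10.9 TPM in TGFb3 and 66.7 ± 9.0 TPM in controls. COL17A1, the hemidesmosomal collagen, rose by log2 0.53 in high calcium and 1.45 in TGFb3 (limma). PLEC, the linker plectin, rose by 0.84 and 1.15 and JUP, plakoglobin, by 0.97 and 1.09. DSG3, a desmosomal cadherin, rose by 1.25 in high calcium and 0.16 in TGFb3. PPL, periplakin, rose by 0.47 in high calcium and fell by 1.02 in TGFb3. ITGA6, the partner of ITGB4, did the reverse, falling to 219 ± 2.2 TPM in high calcium and rising to 547 ± 18.7 TPM in TGFb3, against 297 ± 7.9 TPM in controls.

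Of 17 genes listed as binding or organising keratins, 9 rose, 3 fell and 5 were not called in high calcium (6 and 5 under the median ratio). Of all tested genes 46.1% were called higher and 17% lower there. In TGFb3 8 rose, 6 fell and 3 were not called, beside 26.5% higher and 33.1% lower of all tested genes. Their median log2 difference was 0.30 in high calcium and 0.17 in TGFb3. TGM2, a protein-crosslinking transglutaminase, measured 96.4 ± 3.6 TPM in high calcium, 235.5 ± 13.8 TPM in TGFb3 and 7.53 ± 0.55 TPM in controls. TGM1, the transglutaminase of cornifying cells, rose by log2 0.41 in high calcium as deposited (0.16 and not called after median ratio rescaling) and fell by 1.45 in TGFb3 (limma). HSPA8, a constitutive chaperone, fell by 0.89 and 0.58 and PNN, pinin, a desmosome-associated and splicing protein, by 0.56 and 0.68. KRTCAP2 rose in high calcium by 0.75. It and KRTCAP3 are on the list by name, as keratinocyte-associated proteins, and are not established keratin binders.

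Other intermediate filament genes were split. VIM, vimentin of mesenchymal and cultured cells, measured 594 ± 7.2 TPM in high calcium, 1143 ± 100 TPM in TGFb3 and 392 ± 28.4 TPM in controls, and rose by log2 0.60 and 1.54 (limma). The nuclear lamins LMNB1 and LMNB2 fell by 1.54 and 0.97 in high calcium and by 1.05 and 0.41 in TGFb3. LMNA rose by 0.15 in TGFb3, and its log2 difference in high calcium was 0.09 as deposited, not called, and -0.16, called lower, after median ratio rescaling. Of the 16 listed, 6 were tested, with 2 higher and 2 lower in high calcium and 3 higher and 2 lower in TGFb3. All tested genes had 46.1% higher and 17% lower in high calcium, and 26.5% and 33.1% in TGFb3.

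Of 25 tested transcription factors known to act on epithelial keratin genes, 15 rose, 3 fell and 7 were not called in high calcium (12 higher and 7 lower after median ratio rescaling). In TGFb3 10 rose, 9 fell and 6 were not called. Of all tested genes 46.1% were called higher and 17% lower in high calcium, and 26.5% and 33.1% in TGFb3. The list's median log2 difference was 0.33 in high calcium and 0.01 in TGFb3, beside 0.22 and -0.06 for all tested genes. JUN, a subunit of AP-1, measured 34.9 ± 0.36 TPM in high calcium, 45.9 ± 1.4 TPM in TGFb3 and 6.08 ± 0.25 TPM in controls, and KLF4, a factor of the epidermal barrier, rose by log2 1.86 and 1.61 (limma). JUNB, another AP-1 subunit, rose by 0.64 in high calcium and 2.17 in TGFb3. EHF, an ETS factor of epithelia, fell by 1.36 in high calcium and by 3.79 in TGFb3. ELF3, another epithelial ETS factor, rose by 1.46 in high calcium and had a log2 difference of -0.07 in TGFb3, not called.

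The genes closest to each keratin in pattern were ranked by Pearson correlation of log2(TPM + 1) over the 9 samples among 8693 other genes with a mean of at least 10 TPM. These values are descriptions, since the 9 points fall into 3 treatment groups. For KRT80 they were SRPRA, FBXL5 and SLC10A7 (r 0.997 to 0.999), for KRT17 RAB4B, SEC31A and SPRR2D (0.996 to 0.997) and for KRT6A WDR1, S100A11 and TUFT1 (0.996 to 0.997). For KRT15 they were S100A9, TRMT12 and NLN (0.988 to 0.994), for KRT18 MCEE and SGPP2 (0.995 to 0.996) and for KRT5 DNAJB1, CDC42EP2 and FXYD3 (0.994 to 0.997). For KRT16, KRT7 and KRT8 the closest were MGLL, ZSWIM8 and COG3 (0.993, 0.994 and 0.993). Among the members themselves, over the same 9 samples, KRT16 and KRT7 were the most alike (r 0.993), KRT5 and KRT80 had r 0.979, and KRT6A and KRT15 ran opposite (r -0.934).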

How the data were processed

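RNA from 9 MCF10A samples was extracted with Trizol and sequenced as paired 101-base reads, per the labels' protocols. The submitters' processing notes name HISAT2 and hg38; the sources used here do not give versions, the quantification program, the annotation release or strandedness. TPM values were deposited by the authors as 1 table of 58288 entries, with each sample matched to its column by label and 0 columns unmapped. Entries sharing a symbol were summed, which touched 0 members. The table's identifiers for all 10 members match GENCODE release 29, a hg38 annotation, 9 of them with the same version; coordinates are from that release, 1-based.

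Values were analysed as log2(TPM + 1) for symbols averaging 1 TPM or more across the 9 samples; on this scale folds of low genes are understated. limma 3.58.1 in R 4.3.3 fitted all 9 samples and 3 groups, with a trended empirical Bayes variance, no block, two-sided tests and Benjamini-Hochberg adjustment over all tested genes; the fit was tested on simulated data. Single values per sample were compared by exact permutation tests. The members, gene lists and tests were chosen with earlier results of these data known. Named genes were all 10 members, the other keratins with a mean of at least 1 TPM, and up to 4 called genes of each list with at least 10 TPM in the higher group; some genes picked by this rule or by likeness to a member are not reported here. Alternatives were another pseudocount (0.1), filter (none, or 5 TPM), scaling (median ratio, quantile, mitochondrial genes left out), variance model and sample set, a replicate block, summed copies, and each sample left out. Tables and plots were made with Python 3.11.15, pandas 2.3.3 and matplotlib 3.10.9. Depth is unknown, so no counting interval is given.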

Additional observations from a re-analysis of the deposited data

How the results depend on the processing

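Across 19 alternatives for each of the 30 member differences, 550 of the 570 values kept their side of the threshold and, where called, their direction, 17 lost the call, 1 gained it and 2 called differences changed direction. Uncalled values of KRT80 in TGFb3 (-0.13 to 0.092) and of KRT14 in high calcium against TGFb3 (-0.020 to 0.53) lay on both sides of 0. The total counts of members and of all genes called stayed within 1.5 times of those reported under every alternative run, but their directions did not: in high calcium 6438 genes were called higher and 2378 lower as deposited, and 3991 and 4464 after quantile normalisation; in high calcium against TGFb3 the counts were 7038 and 2256, and 4115 and 4306 under the median ratio. The changed directions were those of KRT7 in high calcium against TGFb3, at -0.14 under the median ratio and, not called, at -0.041 without mitochondrial genes. Lost calls were in KRT15 (high calcium), KRT14 (TGFb3), and KRT16 and KRT7 (high calcium against TGFb3); for KRT15 they include no filter on low values (adjusted p = 0.094) and no variance trend (0.056). The cause was not tested.

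With mitochondrial genes left out the 10 keratins took on average 1.15% of TPM in high calcium, 1.09% in TGFb3 and 0.714% in controls. High calcium and TGFb3 samples then overlapped. With KRT17 left out, basal shares were 28.0, 20.0 and 30.6%, stress shares 15.6, 29.6 and 15.3%, simple shares 56.0, 50.3 and 53.9% and KRT80 shares 0.420, 0.0497 and 0.0707% in high calcium, TGFb3 and controls. Over all keratin genes the type II to type I ratio was 2.28, 3.01 and 3.65. Same-numbered samples did not deviate together (correlations of -0.075 to -0.004). This cannot show whether a number marks a shared culture or day, which the labels do not say. With the replicate block 8557, 8044 and 9118 genes were called in the 3 comparisons, against 8816, 8326 and 9294 without it, and no member's call changed. TPM holds no depth, so counting error in low genes such as KRT14 and KRT80 is not known.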
